A study of Homo sapiens with 3 samples.

Results

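Expression of the desmosome genes and of ladinin was compared between the lung cancer cell line H1975 and its osimertinib-resistant derivatives OR1 and OR2. The 10 genes (LAD1, DSP, JUP, DSG2, DSC2, DSC3, PKP1, PKP2, PKP3 and PERP) were chosen by gene symbol from the 43316 genes on the array, and all 14 of their probes were kept. They were proposed with the ratios of OR1 and OR2 to H1975 already known, so those ratios are a description of the genes and were not tested. Signal well above background on 1 or more arrays was found for 8 of the 10 genes, which therefore have a ratio. DSC3 and PKP1 were not well above background on any array.

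H1975 (NCI-H1975) is a non-small cell lung cancer line with mutated EGFR, the receptor tyrosine kinase that osimertinib inhibits, and it is sensitive to the drug. Its resistant derivatives OR1 and OR2 come from separate selections, in which the osimertinib concentration was raised gradually for 4 months until it reached 2 μmol/L. The culture medium, RPMI with serum, was common to the 3 lines. Each line was measured on 1 array of the same slide, so no replicate exists, no p-value was computed, and the selection, the clone and the culture cannot be told apart. Since the measurement is of bulk RNA, fewer cells of a type and less RNA per cell cannot be told apart either.

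Desmosomes are the junctions that weld neighbouring epithelial cells together and anchor their keratin filaments. Their membrane-spanning desmosomal cadherins, the desmogleins and desmocollins, bind each other between cells, and their tails carry the armadillo proteins plakoglobin and the plakophilins, which in turn hold desmoplakin, the link to the filaments. PERP is a tetraspan membrane protein of desmosomes. Ladinin, encoded by LAD1, is not a desmosome subunit but was described in the anchoring filaments under basal epithelial cells.

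Each array held 60901 spots that were not controls, none of them saturated, and between 45.6% and 45.9% of the 58200 probes were called well above background. The 75th percentile of an array lay at an intensity of 157 in H1975 against 138 and 162 in OR1 and OR2, and ratios were taken after dividing by it. The scanner software's criterion of well above background was met from an intensity of 12.6 in H1975 against 11.4 and 12.6 in OR1 and OR2. Where 1 of the lines of a ratio failed this criterion, its value was replaced by the lowest intensity well above background on that array, or left at its own if higher, and the ratio is then written "at most" or "at least". A gene was counted as down-regulated in a line at a ratio of at most 0.5 and as up-regulated at a ratio of at least 2, the ratios in the study's methods. The technical SD given with a log2 ratio was propagated from the scanner software's error of each spot and covers the measurement of 1 RNA sample only.

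Promoter sequences were taken from RefSeq on GRCh38.p14, from 250 bases before to 50 bases after the transcription start, for 8 of the 10 genes. JUP and DSC2 have 2 promoter entries each, which gives 10 entries in all. The E-box CACCTG, letters known to be bound by factors of the ZEB and Snail families, was searched on both strands, where it reads CAGGTG on the other strand. It was found in 5 of the 10 entries, 1 for each of LAD1, DSP, JUP, DSG2 and DSC2, and 20.6% of all 35116 promoters of the same length held it. A pair of these E-boxes was found in the entries of LAD1, DSP, JUP and DSG2, and 3.49% of all promoters held at least 2. The entry of PERP, also down-regulated in both resistant lines, and the other entries of JUP and DSC2 held no such E-box. Of the entries that held it, those of LAD1, JUP and DSC2, which were down-regulated in both resistant lines, and of DSP, which was not, are shown with the E-boxes in capitals.
LAD1 promoter, chr1:201399275-201399574, minus strand: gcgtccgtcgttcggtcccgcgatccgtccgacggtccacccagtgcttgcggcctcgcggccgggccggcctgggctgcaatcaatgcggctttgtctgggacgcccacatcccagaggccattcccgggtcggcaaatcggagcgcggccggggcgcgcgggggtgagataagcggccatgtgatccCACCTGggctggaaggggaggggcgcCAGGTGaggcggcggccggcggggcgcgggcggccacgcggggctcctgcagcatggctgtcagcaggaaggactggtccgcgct
JUP promoter, chr17:41785927-41786226, minus strand: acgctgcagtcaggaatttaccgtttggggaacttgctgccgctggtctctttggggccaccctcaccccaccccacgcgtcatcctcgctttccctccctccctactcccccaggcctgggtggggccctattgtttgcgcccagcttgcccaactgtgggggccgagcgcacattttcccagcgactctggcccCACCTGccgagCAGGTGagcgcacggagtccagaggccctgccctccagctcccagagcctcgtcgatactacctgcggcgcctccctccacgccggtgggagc
DSC2 promoter, chr18:31102372-31102671, minus strand: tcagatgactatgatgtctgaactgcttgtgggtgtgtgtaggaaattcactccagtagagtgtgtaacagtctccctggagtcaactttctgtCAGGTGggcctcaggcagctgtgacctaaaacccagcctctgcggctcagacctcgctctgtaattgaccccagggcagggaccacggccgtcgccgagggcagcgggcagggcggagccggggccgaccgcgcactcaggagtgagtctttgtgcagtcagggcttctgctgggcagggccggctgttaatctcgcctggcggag
DSP promoter, chr6:7541421-7541720, plus strand: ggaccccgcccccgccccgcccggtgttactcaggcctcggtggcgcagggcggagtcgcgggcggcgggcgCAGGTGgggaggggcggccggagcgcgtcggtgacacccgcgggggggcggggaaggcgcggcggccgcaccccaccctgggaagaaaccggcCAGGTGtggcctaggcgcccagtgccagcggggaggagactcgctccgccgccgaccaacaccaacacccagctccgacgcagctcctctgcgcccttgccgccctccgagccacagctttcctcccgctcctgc

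The E-boxes started 61 and 35 bases before the start of LAD1, 54 and 43 bases before that of JUP, 156 bases before that of DSC2, and 178 and 85 bases before that of DSP. The JUP pair was thus the closest spaced of those shown. In DSG2 they started 232 and 116 bases before the start. GGGCGG, the letters bound by SP and KLF factors, was present in 8 of the 10 entries and in 44.95% of all promoters. CCAAT was present in 2 entries (34.6% of all promoters), the AP-1 motif TGANTCA in 1, that of PERP (7.71%), and TATAAA in none (11.5%). The grainyhead motif AACCNGTT, which includes AACCGGTT, was in none of the entries and in 1.73% of all promoters. All 10 entries were rich in G and C, from 60.7% to 77.0% against a median of 58.7% over all promoters. A match of letters is a description of the window and not a measured binding site.

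Probe sequences are shown, by their first 30 of 60 bases, for the genes whose values rest on 1 probe at the largest ratios, LAD1 and PKP2, and for DSC2 and DSP, which were each measured by 2 probes.
LAD1 probe A_33_P3303810: ccctttctctgaaaaacctgttctcaggaa
PKP2 probe A_33_P3405728: ctgatgataagcatttggagtgcatttatt
DSC2 probe A_23_P4494: ccatccttgcaatattgttgggcatagcat
DSC2 probe A_22_P00005391: agtcccagaagtgatataatatgttcacgg
DSP probe A_32_P157945: aaccaagcattttggaatgagtctccttta
DSP probe A_33_P3402565: acagggaattcttcctactcttattcctac

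Among the desmosomal cadherins, DSC2 was well above background in H1975 and not in either resistant line, and DSG2 was lower in both without passing the ratio. DSC2 (desmocollin 2, NM_024422) is the desmocollin of simple as well as stratified epithelia. Its probe A_23_P4494, which spans 814 bases of hg19 (chromosome 18, 28650796 to 28651609, minus strand) and therefore crosses an intron, had an intensity of 199 in the parental line, 2.76 in OR1 and 3.04 in OR2. Neither resistant line was well above background, so the ratios of OR1 and OR2 to H1975 were at most 0.0652 and 0.0616, which is 15.3-fold and 16.2-fold lower or more. The other probe, A_22_P00005391 (28638806 to 28638865), had an intensity of 67.2 in H1975 against 2.92 and 3.20 in OR1 and OR2. Both probes thus showed the same order of H1975 over the resistant lines, and the ratios of the second were at most 0.193 and 0.183. With normexp correction, which adds an offset to every intensity, the log2 ratio of DSC2 was again a bound, at most -1.72 in OR1 and -1.86 in OR2. DSC2 entered the count through H1975 alone, so it had to differ.

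DSG2 (desmoglein 2, NM_001943, chromosome 18, 29126460 to 29126519, plus strand), the desmoglein found in most epithelia, had an intensity of 441 in H1975 against 196 and 252 in OR1 and OR2. Its log2 ratios were -0.98 in OR1 (technical SD 0.21) and -0.85 in OR2 (0.20 technical SD). H1975 was the highest of the 3 arrays, and the ratios of 0.506 and 0.555 lay just outside the ratio of 0.5. In OR1 it passed 0.5 under 3 of 10 alternatives of the processing, down to 0.335 with spike-in scaling, and in OR2 under none of them. DSC3 (desmocollin 3), a desmocollin of stratified epithelia, was measured by 2 probes at intensities between 2.51 and 3.84 on the 3 arrays, all not well above background, so no ratio was computed. At this signal a difference in DSC3 was not detectable.

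Among the armadillo proteins, plakoglobin and plakophilin 3 were down-regulated in both lines while plakophilin 2 was up-regulated in both. JUP (plakoglobin, NM_002230, chromosome 17, 39911150 to 39911209, minus strand) serves desmosomes and adherens junctions alike. Its intensity was 5916 in the parental line, 899 in OR1 and 1309 in OR2. The log2 ratio was -2.53 in OR1 and -2.22 in OR2, each with a technical SD of 0.20, which is 5.77-fold and 4.64-fold lower than H1975. Both resistant lines lay far from H1975, at over 10 times the technical SD.

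PKP3 (plakophilin 3, NM_007183, chromosome 11, 404848 to 404907, plus strand), a plakophilin of most epithelia that binds desmoplakin and the desmosomal cadherins, had an intensity of 24541 in H1975 against 8486 and 8603 in OR1 and OR2. Its log2 ratio was -1.34 in OR1 and -1.55 in OR2 (each ± 0.20, technical SD). The gene was lower in both resistant lines, yet its spots were still far above the background of their arrays. PKP2 (plakophilin 2, NM_004572, chromosome 12, 32943741 to 32943800, minus strand), the plakophilin of heart muscle and simple epithelia, had the opposite order, with an intensity of 27.9 in H1975 against 146 and 89.5 in OR1 and OR2. Its log2 ratio was 2.58 in OR1 and 1.64 in OR2, each with a technical SD of 0.26, or a ratio of 5.97 and 3.13. H1975 was the lowest of the 3 arrays and its spot lay near the background. With normexp correction the log2 ratio of PKP2 was 1.29 in OR1 and 0.75 in OR2, and the gene was no longer up-regulated in OR2.

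PKP1 (plakophilin 1, NM_000299), which is typical of stratified epithelia, was measured by 2 probes whose targets overlap (chromosome 1, 201297916 to 201297975 and 201297905 to 201297964, plus strand). The first had an intensity of 2.68 in the parental line, 4.20 in OR1 and 2.78 in OR2, and the second of 2.90, 5.44 and 2.94. On both probes OR1 was the highest array and the only 1 on which the scanner software marked the spot as positive and significant, but no spot was well above background and no ratio was given.

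DSP, which encodes desmoplakin, was not down-regulated in either line with the scaling used here, and with spike-in scaling it passed the ratio in OR1, at 0.466. Desmoplakin (NM_004415) is the obligate plakin of desmosomes and connects their plaque to keratin filaments. Probe A_32_P157945 (chromosome 6, 7586582 to 7586641, plus strand) had an intensity of 8485 in H1975 against 5239 and 7938 in OR1 and OR2, and probe A_33_P3402565 (7586052 to 7586111) of 2696, 1632 and 2813. The log2 ratio of the first was -0.51 in OR1 and -0.14 in OR2, and that of the second -0.53 and 0.02, each with a technical SD of 0.20. OR1 was the lowest array on both probes, while OR2 lay within the technical SD of H1975 on both. Desmoplakin thus had ratios of 0.704 and 0.911 in OR1 and OR2, on arrays where plakoglobin had ratios of 0.173 and 0.215.

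PERP (NM_022121, chromosome 6, 138412056 to 138412115, minus strand), a target of p53 and p63 that is needed for stable desmosomes, had an intensity of 9375 in H1975 against 3308 and 4699 in OR1 and OR2. Its log2 ratio was -1.31 in OR1 and -1.04 in OR2 (each ± 0.20, technical SD). The ratio in OR2, 0.488, was the member value just inside 0.5, and under 10 alternatives it stayed at most 0.5 in 5. Of these 5, the median over probes (PERP has 1 probe), outlier spots kept and both other background filters left its log2 ratio at -1.04. Median scaling was the only further alternative that kept the call. PERP was therefore down-regulated in both lines as processed here, with a call in OR2 that depends on the scaling and the background correction.

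LAD1 (ladinin 1, NM_005558, chromosome 1, 201350342 to 201350401, minus strand) had the lowest ratio of the 10 genes in both lines. Its intensity was 11724 in the parental line, 18.6 in OR1 and 19.4 in OR2. All 3 spots were well above background, but those of the resistant lines lay only just over the lowest intensity so called. The log2 ratio was -9.11 in OR1 and -9.28 in OR2 (each ± 0.31, technical SD), or 554-fold and 621-fold lower than H1975. By the ratio in the less changed line, LAD1 had the lowest value among the genes with a ratio in both lines, where the ratios of genes below background in the resistant lines are bounds and could be lower than given. With normexp background correction its log2 ratio was -6.99 in OR1 and -7.12 in OR2.

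**Figure D1:**
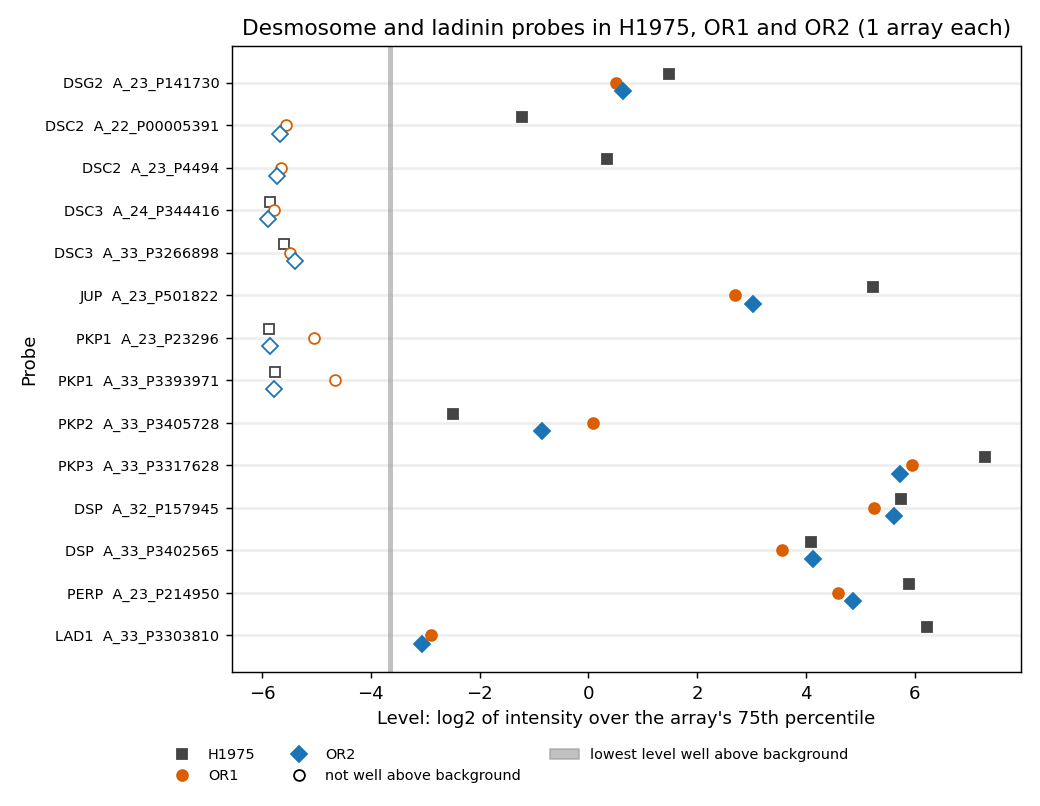
Level of each of the 14 probes on each of the 3 arrays, as the log2 of its intensity over the array's 75th percentile. Open symbols are not well above background and the grey band spans the lowest level so called on the arrays; levels are comparable along a row and not between rows. LAD1, DSC2 and JUP lie farthest to the left of H1975 in OR1 and OR2, and PKP2 lies to the right.

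The members placed as follows by their ratio. In both OR1 and OR2, 5 of the 8 genes with a ratio were down-regulated (LAD1, DSC2, JUP, PKP3 and PERP), 1 was up-regulated (PKP2) and 2 were neither (DSG2 and DSP). Of the 22417 genes with a ratio, 9.34% were down-regulated in OR1, 8.41% in OR2 and 6.32% in both lines, and 5.09% were up-regulated in both. The median log2 ratio of the 8 genes was -1.33 in OR1 and -1.29 in OR2, against 0.04 and -0.06 over all genes. These members were chosen with their ratios known, so nothing is read from the difference. With scaling on 7 spike-in probes in place of the 75th percentile, the median of all genes in OR1 moved by -0.60, and the share of up-regulated among all genes called in both lines went from 44.6% to 27.6%. The 4 members LAD1, DSC2, JUP and PKP3 were down-regulated under every scaling and background correction tried.

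**Figure D2:**
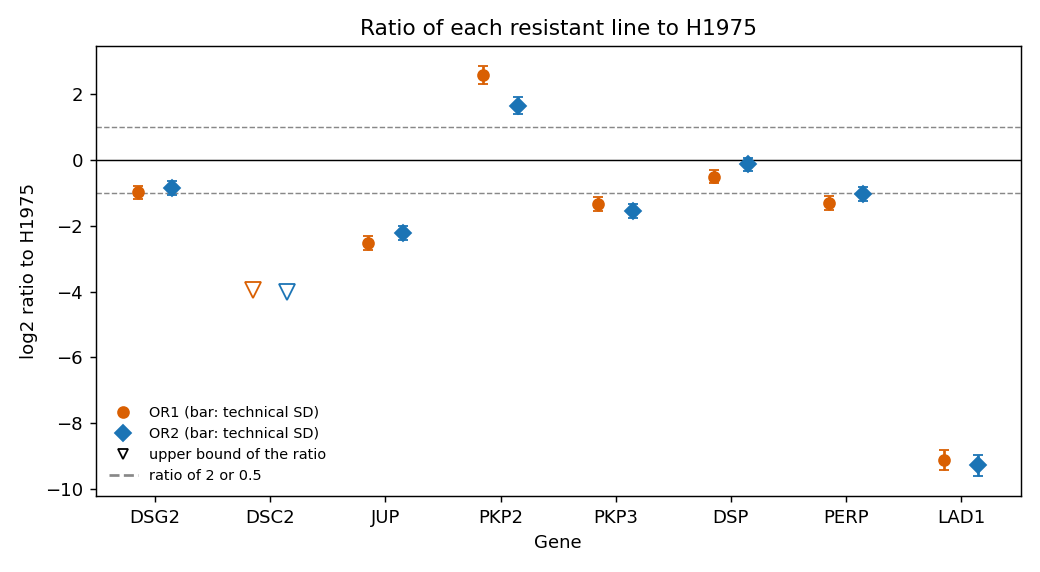
log2 ratio of OR1 and of OR2 to H1975 for the 8 genes with a ratio, ordered by role from the cadherins to ladinin. Bars are the technical SD of 1 array against 1 array, triangles are upper bounds and dashed lines mark the ratios of 2 and 0.5. The ratios run from -9.28 for LAD1 in OR2 to 2.58 for PKP2 in OR1.

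**Figure D3:**
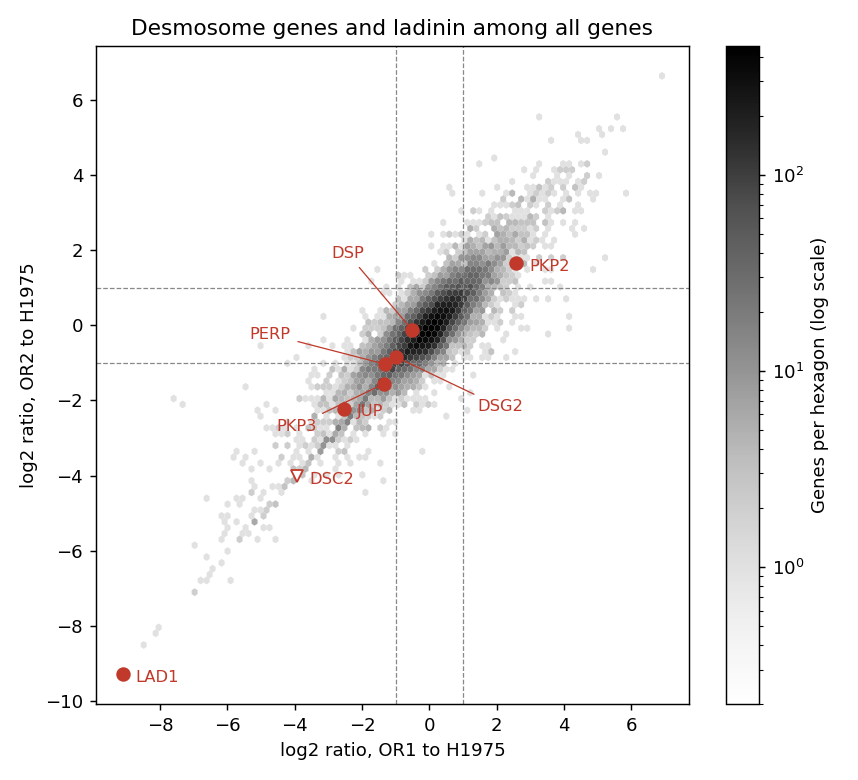
log2 ratio in OR2 against that in OR1 for all genes with a ratio in both lines, as hexagons shaded by the number of genes on a log scale, with the 8 members in red and DSC2 open because its ratios are bounds. Both axes share the H1975 array. LAD1 stands at the lower left end, 5 members lie past both dashed lines at a ratio of 0.5, and PKP2 lies past both at a ratio of 2.

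The 2 resistant lines were also set against each other, on ratios that share the H1975 array. The log2 difference of OR2 minus OR1 was -0.93 for PKP2 (technical SD 0.21), which is 4.41 times its technical SD, with OR1 the higher line. With spike-in scaling it was -0.26, or 1.24 times its technical SD. For LAD1 the difference was -0.17, for PKP3 -0.21, for DSG2 0.13, for PERP 0.28, for JUP 0.31 and for the main DSP probe 0.37. Each of these was under 2 technical SD with the 75th percentile as the scale. With spike-in scaling the difference was 1.04 for DSP, 0.98 for JUP, 0.95 for PERP, 0.80 for DSG2 and 0.46 for PKP3, all over 2 technical SD with OR2 the higher line, and 0.50 for LAD1, which was not. For DSP the difference was over 2 technical SD under 6 of 10 alternatives. The scaling thus set the size of these differences, and for LAD1 and PKP3 also the sign. The second DSP probe differed by 0.56, or 2.73 times its technical SD, with OR2 higher. For DSC2 no order was given because both lines were below background.

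The remaining desmosomal and plakin genes gave no call in both lines. Of 10 further genes of this kind, DSG1, DSG3, DSG4 and DSC1, the desmosomal cadherins of stratified epithelia and hair, were not well above background on any array, with intensities between 2.61 and 8.40. The other 6 were all well above background on the 3 arrays, and none was down- or up-regulated in both lines. Their median log2 ratio was 0.09 in OR1 and 0.22 in OR2. Envoplakin (EVPL), a plakin of the cornified envelope, had an intensity of 1622 in H1975 against 780 and 724 in OR1 and OR2, and its ratio of 0.548 and 0.434 passed 0.5 in OR2 only. Periplakin (PPL), its partner, had an intensity of 425, 428 and 868, and a ratio of 1.15 and 1.99.

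Hemidesmosomes fix basal cells to the basement membrane through integrin α6β4, and laminins lie under them. LAMA3, the laminin α3 chain, was down-regulated in both lines, with an intensity of 3601 in H1975 against 85.0 and 364 in OR1 and OR2, a log2 ratio of -5.22 and -3.35. When the median over the 2 probes of LAMA3 was used, its log2 ratio was -2.83 and -1.84. This median is the mean of the 2. The other LAMA3 probe alone therefore gave a ratio or bound not counted as down-regulated in either line. The call of LAMA3 thus rests on its brighter probe. LAMB3, the laminin β3 chain, was at a ratio of 0.651 and 0.558 and passed no ratio, so it differed from LAMA3 as measured by that brighter probe.

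Adherens junctions share plakoglobin with desmosomes and hold cells together through classical cadherins. Of 10 such genes 9 had a ratio, 3 were down-regulated in both lines and none was up-regulated. CDH1, which encodes E-cadherin, had an intensity of 5649 in the parental line, 102 in OR1 and 464 in OR2, a log2 ratio of -5.61 and -3.64. CDH3, P-cadherin, had an intensity of 11122, 1623 and 5291, a log2 ratio of -2.59 and -1.11, and its ratio in OR2 stayed at most 0.5 under 8 of 10 alternatives. NECTIN4, a nectin of epithelial junctions, had an intensity of 663, 8.20 and 25.2, with a ratio bounded at 0.0196 or less in OR1 and measured as 0.0370 in OR2. All 3 were lower in OR1 than in OR2 on these arrays. CTNNB1, β-catenin, the armadillo protein most related to plakoglobin, had ratios of 1.30 and 1.003 in the resistant lines.

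Keratins are the filaments that desmoplakin holds. Of 12 intermediate filament genes 10 had a ratio, 2 of them down-regulated and 2 up-regulated in both lines. KRT7, a keratin of simple epithelia, had an intensity of 131484 in H1975 against 18866 and 22949 in OR1 and OR2, a log2 ratio of -2.61 and -2.56. KRT19, also of simple epithelia, had an intensity of 149897, 60841 and 75838, a log2 ratio of -1.11 and -1.02. Its ratio in OR2 stayed at most 0.5 under 6 of 10 alternatives and was 0.574 with the authors' normalized intensities. KRT14, a keratin of basal cells, had an intensity of 108, 1724 and 1140, a log2 ratio of 4.19 and 3.36, and KRT17, of basal and appendage cells, of 84.1, 1740 and 1182, a log2 ratio of 4.56 and 3.77. With the median over its 2 probes KRT14 was at 2.97 and 2.42. KRT14 and KRT17 are close in sequence, and cross-hybridization between their probes was not tested. KRT8 and KRT18, the pair of simple epithelia, were at ratios between 0.806 and 1.12, and VIM, vimentin, at 1.58 and 1.83.

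Of 16 transcription and splicing regulators of the epithelial or the mesenchymal state, 12 had a ratio, 7 were down-regulated in both lines and 1 was up-regulated. OVOL2 and OVOL1, zinc finger factors of epithelial cells, had intensities of 1621 and 1333 in H1975 and of at most 12.2 in the resistant lines, none of them well above background there. The ratio was at most 0.00802 and 0.00757 for OVOL2 and at most 0.00976 and 0.00921 for OVOL1. GRHL2, a grainyhead factor of simple epithelia, was well above background in H1975 only, at 467, with a ratio of at most 0.0278 and 0.0263. GRHL1 had an intensity of 291, 36.4 and 80.1, a log2 ratio of -2.81 and -1.90 that was -1.47 and -1.05 with the median over its 2 probes. This median is the mean of the 2, so the other GRHL1 probe alone gave a ratio or bound that did not pass 0.5 in either line. The call of GRHL1 among the 7 thus rests on its brighter probe. ESRP1, an epithelial splicing regulator, had an intensity of 325, 5.03 and 2.81 and was well above background in H1975 only. ZEB1, the E-box repressor of epithelial genes, was the up-regulated regulator, with an intensity of 136, 564 and 718 and a log2 ratio of 2.24 and 2.36. SNAI1 and ESRP2 complete the 7 that were down-regulated and were named after their values were seen. SNAI1 encodes Snail, like ZEB1 a repressor that binds E-boxes, and its intensity was 6112, 1968 and 1782.

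**Figure D4:**
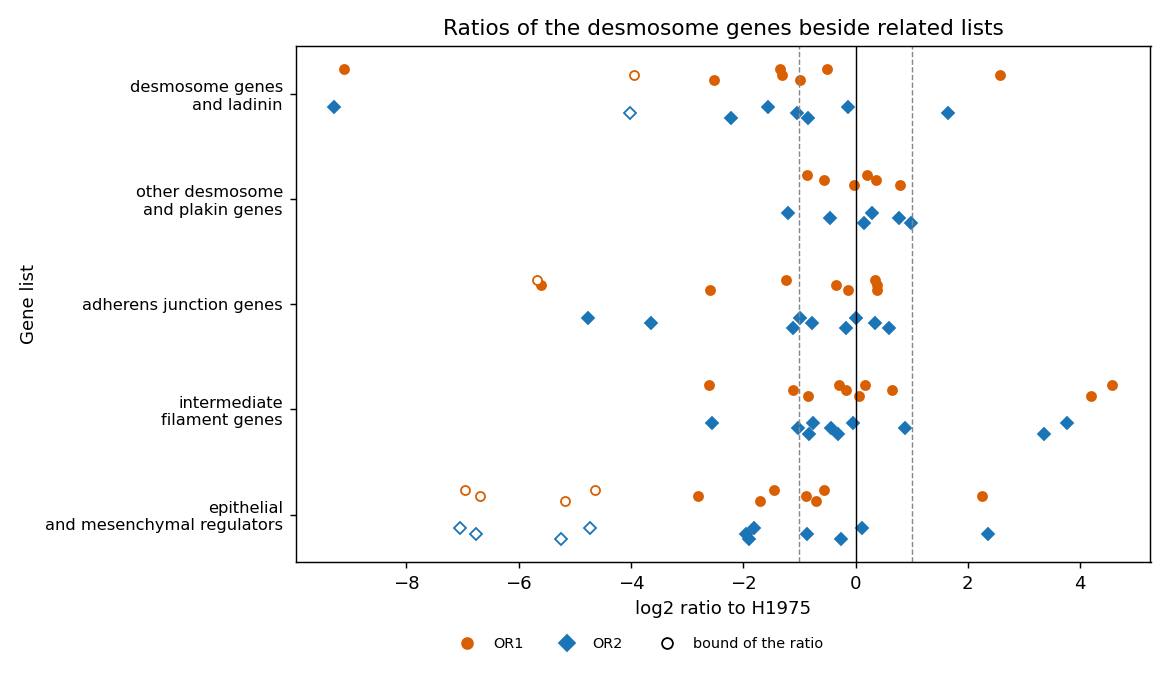
log2 ratio to H1975 of each gene with a ratio in both lines, by list, for OR1 (circles) and OR2 (diamonds), open where the ratio is a bound. Dashed lines mark the ratios of 2 and 0.5. The other desmosome and plakin genes have medians of 0.09 and 0.22, and the desmosome genes with ladinin have medians of -1.33 and -1.29. The latter were chosen with their ratios known, so nothing is read from the difference.

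Epithelial markers were well above background on all arrays, 6 of 6, and 4 of them (EPCAM, CDH1, KRT7 and KRT19) were down-regulated in both lines. Their summed level, in multiples of the array's 75th percentile, was 2480 in H1975 against 1071 and 1064 in OR1 and OR2. KRT8 and KRT18 of the same list were not called. The part of a general epithelial difference in the ratios of the 5 down-regulated members was not tested. Of 7 fibroblast markers, COL3A1, DCN, PDGFRA and THY1 were not well above background on any array, and the summed level of the list was 4.29, 4.98 and 0.663. Of the leukocyte markers on the array PTPRC was detected at intensities between 20.5 and 21.0 and CD3E was not, and the 3 endothelial markers summed to between 0.565 and 0.709. Of 5 lung adenocarcinoma markers NKX2-1, NAPSA and SFTPC were detected on all 3 arrays, and SFTPB and SLC34A2 on none.

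Several members lie near each other. On hg19, probes of DSC3 and DSC2 are 74.2 kb apart and those of DSC2 and DSG2 475.3 kb apart on chromosome 18, in the cluster that holds all desmosomal cadherin genes. Within this cluster DSC2 and DSG2 gave signal well above background and DSC3, DSC1, DSG1, DSG4 and DSG3 did not on any array. An unnamed transcript there, ENST00000580937, 49.5 kb before the DSG2 probe, had an intensity of 19.6 in the parental line, 11.2 in OR1 and 7.30 in OR2, with a ratio of at most 0.663 and 0.626. DSC2 was thus the cluster gene with the lowest bound on its ratio.

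PKP1 and LAD1 are 52.4 kb apart on chromosome 1. Between them lies TNNT2, which encodes cardiac troponin T, with an intensity of 36.8 in H1975 against 11.9 and 8.56 in OR1 and OR2 and a ratio of at most 0.368 and 0.334. On the far side of PKP1, 100.3 kb from its probe, IGFN1 had an intensity of 82.7, 393 and 986, a ratio of 5.42 and 11.6. On the far side of LAD1, 84.8 kb from its probe, PHLDA3, a p53 target that restrains AKT, had an intensity of 1213, 87.9 and 179, a ratio of 0.0826 and 0.144, while CSRP1 at 102.7 kb was at 1.44 and 1.29. The neighbours along this stretch thus had ratios on both sides of 1. Of the 15 genes with a ratio within 500 kb of LAD1, 3 were down-regulated and 1 up-regulated in both lines, and their median log2 ratio was -0.05 in OR1 and -0.36 in OR2.

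Around JUP, 33 genes within 500 kb had a ratio, 2 were down-regulated in both lines and 6 up-regulated, and the median log2 ratio was -0.24 in OR1 and -0.31 in OR2. This stretch holds a keratin cluster, in which KRT17 lies 134.2 kb, KRT14 171.1 kb and KRT19 231.2 kb from the JUP probe, and the first 2 of these had ratios opposite to JUP. Around PKP3, 53 genes had a ratio, 5 were down-regulated and 1 up-regulated. Around DSP 10 genes had a ratio, around PKP2 4 and around PERP 2, and none of them was called in both lines.

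The genes most like a member were sought by the distance between pairs of log2 ratios in OR1 and OR2, among the 18589 genes that passed the background criterion on every array. The nearest to LAD1 was AFAP1L2, an actin filament-associated adaptor, at a distance of 3.99, with an intensity of 2548 in H1975 against 36.3 and 22.5 in OR1 and OR2. After it came ENST00000439784 at 4.02, S100A14 at 4.65, PCSK5 at 5.01 and SPINT1, a membrane-bound serine protease inhibitor of epithelia, at 5.29. All 5 were lower in both lines, and none of these lay close to LAD1. The criterion left out genes below background in a resistant line, while LAD1 passed it only just. OVOL2, with ratios of at most 0.00802 and 0.00757, was among those left out. How near such genes come to LAD1 is not known. DSP, whose ratios lay nearer those of most genes, had many near neighbours. The closest were POLB at 0.0021, PLEKHG2 at 0.0125, SYNRG at 0.0130, N4BP2L2 at 0.0140 and STK10 at 0.0263.

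**Figure D5:**
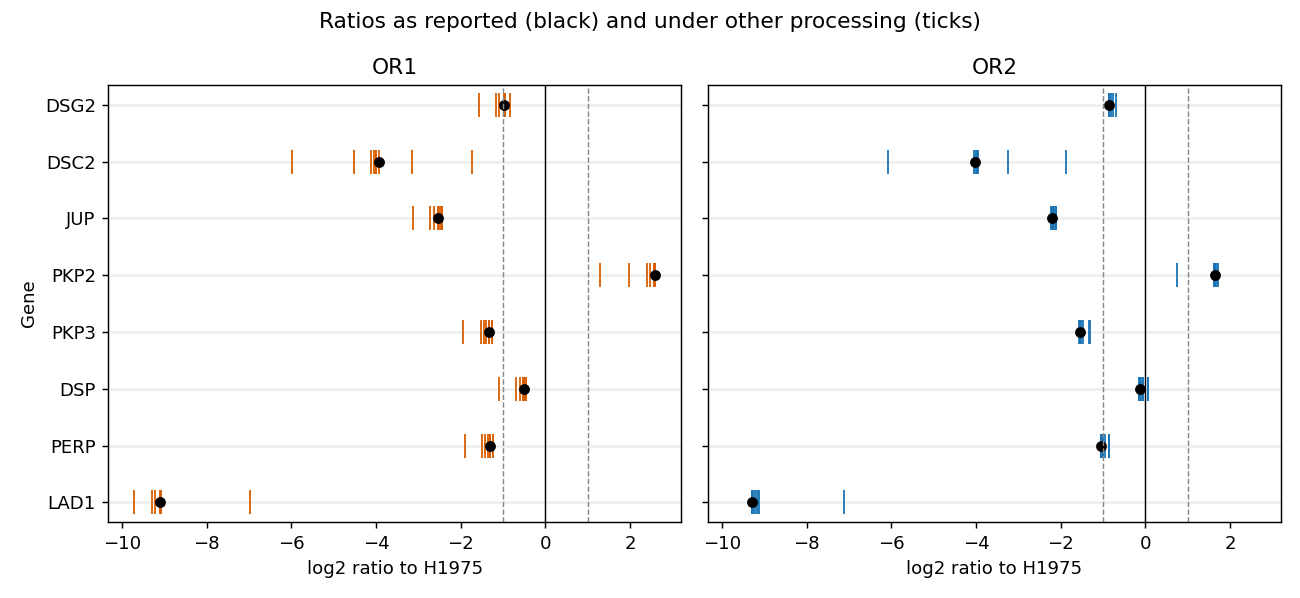
log2 ratio to H1975 of the 8 genes in OR1 (left) and OR2 (right) as reported (black points) and under up to 10 alternatives of scaling, background correction, filter and probe choice (ticks). Dashed lines mark the ratios of 2 and 0.5. JUP, PKP3, DSC2 and LAD1 stay to the left of 0.5 in both lines, PERP in OR2 falls on both sides, and PKP2 stays above 0.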

How the data were processed

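Labeled RNA from each of the 3 lines was hybridized to 1 single-colour Agilent human array. The authors deposited the scanner output of Agilent Feature Extraction (version 9.5.1.1 in the submitters' processing notes, 10.7.1.1 in the file headers), with intensities corrected for local background and spatial trend and unscaled between arrays, and a second table of normalized intensities whose method is not given in the sources used here. Probe positions are on hg19, the build of the files, and their exon or UTR annotation was not analysed here.

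Controls and outlier spots were dropped, repeated spots were averaged on the log2 scale (median SD between spots 0.05), and levels were taken relative to each array's 75th percentile. The probe with the highest mean level stood for a gene, and all member probes are given. Ratios of 1 array to 1 array were called at 2 and 0.5, as in the study's methods, without a test. The members, lists and alternatives were chosen with earlier results of these data known. Every member was named, and from each list the genes called in both lines, at most 6 by the ratio in the less changed line, with exceptions given for comparison. Some results of these lists are not reported here. Neighbours had a probe within 500 kb. Of the 14 member probes, 13 carry a RefSeq accession and all 13 matched the same symbol in the RefSeq table.

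The alternatives were normexp background correction (offset 50), the authors' normalized intensities, quantile, median, spike-in (7 probes) or no scaling, other background filters, outlier spots kept, the median over probes, and ratios of 4 or 1.5. The counting was tested on simulated data. Python 3.11.15, numpy 2.4.6, pandas 2.3.3, matplotlib 3.10.9, R 4.3.3 and limma 3.58.1 were used. The number of arrays limits the precision.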

Additional observations from a re-analysis of the deposited data

Results flagged for a closer look

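The second probe of DSP, A_33_P3402565, had a log2 ratio to H1975 of -0.53 in OR1 and of 0.02 in OR2, each with a technical SD of 0.20, so the signs were opposite, while OR2 lay within the technical SD of H1975. OR2 was higher than OR1 by 0.56 on the log2 scale. With a single array each, this difference was not tested. On the other DSP probe the log2 ratio was -0.51 in OR1 and -0.14 in OR2.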

How the results depend on the processing

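No paired analysis was possible because each line had 1 array, and for the same reason no array could be left out. Of 516 values recomputed under the alternatives, 422 moved by less than their error or by less than 1.5 times and 94 moved further. Of the ratios past 2 or 0.5, 0 changed sign, while calls that were lost, given below, are not counted in that 0. The other background filters and outlier spots kept hardly changed the ratios of members detected on all arrays. Nor did the median over probes for those with 1 probe. These settings are part of the 516 values and of the counts out of 10 alternatives. On spike-in probes the median log2 ratio of the members in OR1 was -1.92 and 597 genes were up-regulated in both lines, and the median of all genes in OR1 moved by -0.60, without scaling by -0.19 and with median scaling by -0.11. With normexp correction 0 members were up-regulated, and 705 genes passed downward and 461 upward in both lines, as compared with 1417 and 1141 as reported. When all 3 arrays had to be well above background, the members' median in OR2 was -1.04 and 873 genes were down-regulated; DSC2 then had no ratio, which left 4 members. Without a background filter the median was -0.94, and 2437 genes passed the ratio downward and 2057 upward. At a ratio of 4, 3 members (LAD1, JUP and DSC2) were down-regulated and 0 up-regulated, with 422 and 265 genes in all, and at a ratio of 1.5 DSG2 joined them, with 2957 and 2573 genes. PERP was not down-regulated in OR2 under quantile normalization, no scaling, spike-in scaling, normexp correction and the authors' normalized intensities. In OR1, DSG2 passed 0.5 under median, spike-in and no scaling, and DSP under spike-in scaling. In OR2, KRT19 was not down-regulated under quantile normalization, no scaling, spike-in scaling and the authors' normalized intensities, nor CDH3 under the first and last of these. DSP in OR2, which passed no ratio, was at 0.06 with the authors' normalized intensities. DSC2 has no signal above background in the resistant lines, and its log2 ratios were bounds except without a background filter. Over the alternatives they ranged from -5.98, without that filter, to a bound of -1.72 in OR1. In OR2 they ranged from -6.07, again without that filter, to a bound of -1.86. The log2 ratio of LAD1 ranged from -9.71 to -6.99 in OR1, and that of PKP2 from 0.75 to 1.72 in OR2. The cause was not tested beyond what each alternative's construction shows.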

Other observations

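Values of further genes on these arrays bear on the same structures. AFDN, which encodes afadin, the nectin-binding protein of adherens junctions, had an intensity of 2043 in H1975 against 755 and 1221 in OR1 and OR2, a ratio of 0.422 and 0.582. ITGB4, the integrin β4 of hemidesmosomes, had an intensity of 7023, 3417 and 9285, a ratio of 0.555 and 1.29, so that OR1 was below H1975 and OR2 above it. NKX2-1, a transcription factor of lung epithelium, had an intensity of 832, 184 and 1167, a ratio of 0.252 and 1.36. SFTPC, which encodes surfactant protein C of alveolar cells, had an intensity of 24.0, 79.6 and 120.3, a ratio of 3.78 and 4.87. COL1A1, a collagen of fibroblasts, had an intensity of 461, 585 and 86.8. These genes were singled out after their values were seen, and their differences between the lines were not tested.

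Within the keratin cluster beside JUP, KRT16 had an intensity of 105 in H1975 against 262 and 293 in OR1 and OR2, a ratio of 2.85 and 2.72, and KRT13 had a ratio of at least 2.22 and at least 4.604. ANO9, whose probe lies 13.97 kb from that of PKP3, had an intensity of 165, 18.3 and 55.2, a ratio of 0.127 and 0.327.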
